A study of Mus musculus with 4 samples.

Results

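The genes described here carry a cell through mitosis. They are 46 genes of mitotic entry, the spindle and the kinetochore. These were listed by name from their known roles, with earlier results of these data known. All 46 were found by gene symbol among the 24454 genes of the count table. Each had at least 34 counts in each library, so all 46 passed the filter on low counts, which kept 14266 genes. The RNA came from hearts of mice at postnatal day 7 (P7). miR-128OE mice were α-MHC-tTA; miR-128TetRE animals on a C57BL/6 background, in which a cardiomyocyte promoter drives a doxycycline-repressed activator that switches on miR-128, and Ctrl mice carried miR-128TetRE without the activator. There were 2 Ctrl libraries (WH7 and WH8) and 2 miR-128OE libraries (WH9 and WH10). The labels do not say whether a library came from a single heart or from pooled hearts, or whether doxycycline was given, so p-values measure the spread between these libraries.

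Mitosis begins when CDK1 bound to a B-type cyclin phosphorylates its targets and the chromosomes condense. Spindle microtubules, pushed and crosslinked by kinesin motors, attach to each chromosome at the kinetochore, a layered complex that is built on centromeric nucleosomes containing CENP-A. The spindle assembly checkpoint holds the cell until all kinetochores are attached, and the anaphase-promoting complex (APC/C) then marks securin and cyclin B for destruction so that separase can free the sister chromatids. Cardiomyocytes of the mouse stop dividing within about the first week after birth, when many of them pass through a last round of mitosis without cytokinesis, while other cells of the heart go on dividing.

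Library totals ranged from 8096870 to 14359838 counts, and the 46 genes together had from 12363 to 18511 of them. Replicates differed by more than sampling noise, with a chi-square per degree of freedom of 11.7 between the Ctrl libraries and 5.55 between the miR-128OE libraries, so each was used as a separate sample. *Xist*, which is expressed in females, had 14543 and 11339 counts in the Ctrl libraries against 94 and 132 in the miR-128OE libraries, and the Y-linked *Ddx3y* had 13 and 7 against 1442 and 1768. Condition and sex therefore coincide in these libraries and cannot be told apart in any result below. The gene *Mir128-2* had 0 counts in both Ctrl libraries and 2 and 10 in the miR-128OE libraries, and *Mir128-1* was at 0 in all 4. These are reads on the precursor genes and are no measure of the mature microRNA. The 10 cardiomyocyte markers summed to between 52456 and 70852 CPM (counts scaled to library size) in each library, which fits the labelled tissue.

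Many genes of late G2 and mitosis share a promoter layout, with a cell cycle genes homology region (CHR) at the start of transcription and CCAAT boxes upstream. The CHR is bound by the DREAM complex in resting cells and by MuvB with B-MYB and FOXM1 in dividing ones, and the CCAAT box by NF-Y. Promoters from RefSeq on GRCm38.p6, each running from 250 bases before the start to 50 bases from the start on, were matched for 40 of the 46 genes, which gave 43 promoters. The CHR sequences TTTGAA or TTCGAA, on either strand, were found in 27 of these 43 promoters (62.8%), against 13.8% of 14304 promoters of the genes tested. CCAAT on either strand was found in 30 (69.8%) against 37.3%, and a CHR together with CCAAT in 22 (51.2%) against 5.55%. Of 37 CHR matches, 25 lay within 50 bases of the start site, and of 70 CCAAT matches, 45 lay in the 120 bases before it. Positions were not counted over the promoters of all genes, and matches shared by overlapping promoters of *Bub3* were counted in each. Windows of 130 bases, from 90 bases before the start on, are shown 5′ to 3′ for 9 promoters so that the layout can be compared between genes that were lower in miR-128OE hearts and genes that were not. The capitals mark CHR and CCAAT matches, which on the other strand read TTCAAA for the former motif and ATTGG for the latter. The first 4 are promoters of genes that were not lower by the test given below, and the other 5 belong to genes that were.
Cdk1 (chr10:69352873-69353002, - strand): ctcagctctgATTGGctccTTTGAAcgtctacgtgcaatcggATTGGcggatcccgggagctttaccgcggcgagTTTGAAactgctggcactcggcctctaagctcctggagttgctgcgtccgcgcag
Ccnb2 (chr9:70421515-70421644, - strand): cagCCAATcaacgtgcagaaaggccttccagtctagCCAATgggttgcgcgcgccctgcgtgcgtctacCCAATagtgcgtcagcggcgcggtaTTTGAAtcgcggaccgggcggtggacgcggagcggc
Plk1 (chr7:122159345-122159474, + strand): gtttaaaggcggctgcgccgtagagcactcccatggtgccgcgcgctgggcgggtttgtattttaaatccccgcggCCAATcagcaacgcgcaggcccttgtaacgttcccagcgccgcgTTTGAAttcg
Cdc20 (chr4:118437304-118437433, - strand): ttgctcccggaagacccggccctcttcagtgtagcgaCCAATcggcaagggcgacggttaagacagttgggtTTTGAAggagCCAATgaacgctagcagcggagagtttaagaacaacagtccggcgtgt
Bub1 (chr2:127831820-127831949, - strand): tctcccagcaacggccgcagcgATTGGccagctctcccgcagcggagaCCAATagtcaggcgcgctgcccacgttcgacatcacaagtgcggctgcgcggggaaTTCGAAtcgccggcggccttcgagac
Cenpf (chr1:189688047-189688176, - strand): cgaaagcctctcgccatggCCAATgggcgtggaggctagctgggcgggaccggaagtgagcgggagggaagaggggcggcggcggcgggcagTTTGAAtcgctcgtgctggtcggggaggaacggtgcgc
Kif11 (chr19:37376292-37376421, + strand): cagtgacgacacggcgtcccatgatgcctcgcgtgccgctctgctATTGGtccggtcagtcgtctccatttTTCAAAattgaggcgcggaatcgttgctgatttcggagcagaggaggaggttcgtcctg
Kif20b (chr19:34922268-34922397, + strand): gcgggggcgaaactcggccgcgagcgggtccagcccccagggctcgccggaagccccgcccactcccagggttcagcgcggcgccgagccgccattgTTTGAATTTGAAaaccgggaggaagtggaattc
Hmmr (chr11:40733398-40733527, - strand): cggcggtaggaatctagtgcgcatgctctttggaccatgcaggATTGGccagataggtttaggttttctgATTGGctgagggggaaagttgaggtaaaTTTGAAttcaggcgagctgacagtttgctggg
The *Cdk1*, *Ccnb2*, *Plk1* and *Cdc20* windows all held a CHR and a CCAAT box, as did *Bub1*, *Cenpf*, *Kif11* and *Hmmr*, whereas *Kif20b* held a pair of adjoining CHR matches and no CCAAT. Among the promoters of genes that were lower in miR-128OE hearts, 17 of 22 held a CHR (77.3%), and among those of the genes that were not lower, 10 of 21 (47.6%). For CCAAT the order was the other way, with 14 of 22 (63.6%) against 16 of 21 (76.2%). The 22 promoters came from 22 genes and the 21 from 18 genes, with 3 for *Cenpk* and 2 for *Bub3*. No promoter was matched for the lower genes *Incenp*, *Ska1*, *Spc24* and *Tpx2*, or for *Foxm1* and *Kif20a*, which were not called. A match describes the letters in this window and is no evidence that a factor was bound in these hearts.

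**Figure D1:**
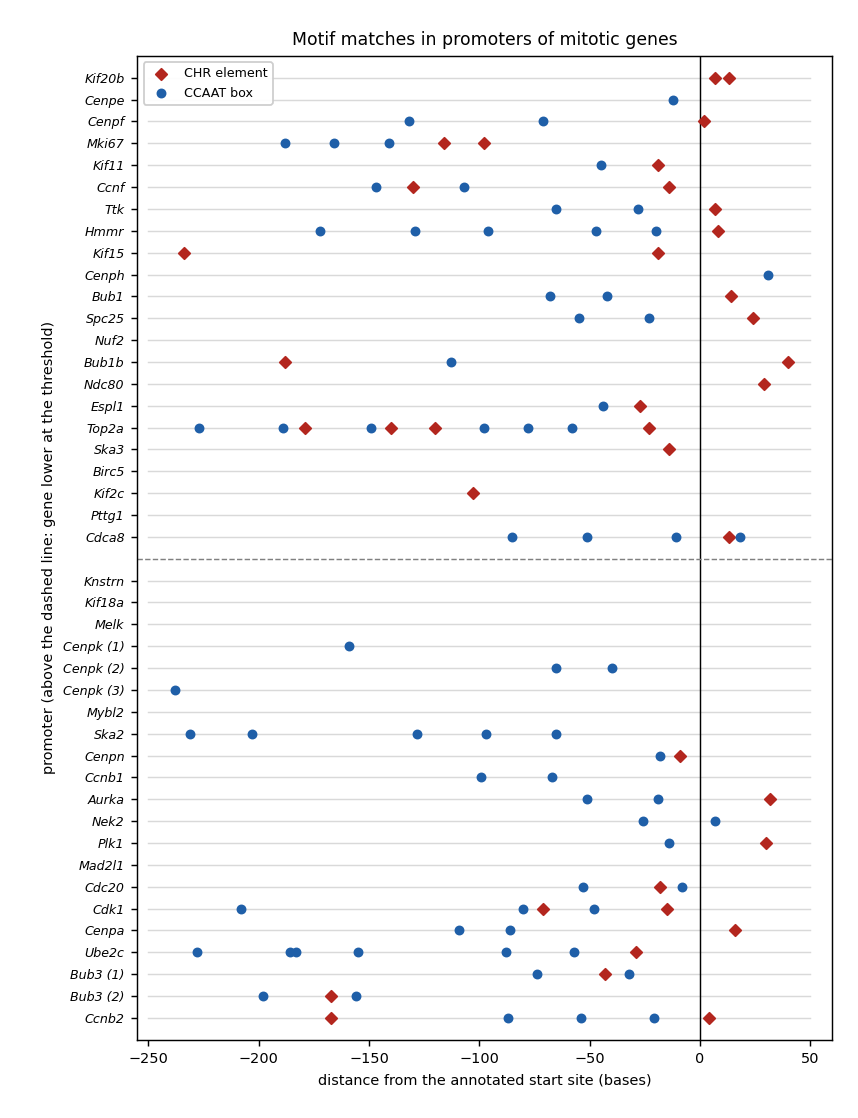
Positions of CHR matches (TTTGAA or TTCGAA) and of CCAAT matches, on either strand, in the promoters of the mitotic genes, with the distance from the start site in bases on the horizontal axis and a row for each promoter, with the genes called lower above the dashed line. Most CHR matches (25 of 37) lie within 50 bases of the start, and CCAAT matches lie mainly upstream (45 of 70 in the 120 bases before it).

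The overexpressed microRNA, mature miR-128-3p, reads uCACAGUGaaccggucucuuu in RefSeq, with its seed (bases 2 to 8) in capitals. A target site pairs with the seed, so the annotated 3′UTRs were searched for CACTGTG, the match to bases 2 to 8, and ACTGTGA, the match to bases 2 to 7 followed by A, which overlap where both occur. At least 1 site was found in 15 of the 46 genes (32.6%), against 33.2% of 13465 tested genes with a 3′UTR. Among the genes that were lower in miR-128OE hearts, 6 of 26 held a site (23.1%), and among the others, 9 of 20 (45.0%). These shares take no account of 3′UTR length, which ran from 121 bases in *Bub1* to 6802 in *Mad2l1*. Each site below is shown with 8 flanking bases on either side, from GRCm38, for 8 of the 15 genes, as examples of where mitotic transcripts could pair with the microRNA directly. The first 4 lines are from genes that were not lower and the other 4 from genes that were, and the capitals mark the site.
Cdk1 (chr10:69338284-69338306, - strand): gcagatgtCACTGTGgtggctgt
Ccnb1 (chr13:100779403-100779425, - strand): acatccttCACTGTGtgtcctta
Nek2 (chr1:191831705-191831727, + strand): accgccttCACTGTGgtttccaa
Melk (chr4:44364167-44364189, + strand): cagctcttCACTGTGactcattt
Bub1b (chr2:118641548-118641570, + strand): tctcctttCACTGTGtattttat
Ttk (chr9:83872239-83872261, + strand): actcatagCACTGTGtatattaa
Spc24 (chr9:21756996-21757018, - strand): cgccctcgCACTGTGaaggcaga
Kif11 (chr19:37421424-37421446, + strand): gacatcatCACTGTGcctgtttc
*Melk*, which was not called, and *Spc24*, which was lower, held the match to bases 2 to 8 followed by A. Of the 9 genes that were lower by at least 2-fold, *Ska1*, *Kif11* and *Ttk* held a site in the annotated 3′UTR, whereas *Kif20b*, *Cenpe*, *Cenpf*, *Mki67*, *Ccnf* and *Hmmr* held none.

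The question that the comparison addressed was how the transcripts of mitotic genes differ in P7 hearts that overexpress miR-128. Of the 46 genes, 26 (56.5%) were lower in miR-128OE hearts by edgeR's quasi-likelihood test at an adjusted p-value under 0.05, against 15.0% of all 14266 genes. None was called higher by edgeR, against 16.5% of all genes, and this count was also 0 at an unadjusted p-value under 0.05 and by DESeq2. The log2 fold change was negative for 44 of the 46, and its median was −0.61, against −0.01 for all genes. Both miR-128OE libraries lay below both Ctrl libraries for 37 genes (80.4%), against 34.4% of all genes. The decrease was largest in *Ska1* (log2 fold change −1.37), *Kif20b* (−1.36) and *Cenpe* (−1.24), and 9 genes were called lower by at least 2-fold. Of the 20 genes that missed the threshold, 11 had no overlap between the groups and 8 had an unadjusted p-value under 0.05. The RNA came from whole hearts, so fewer dividing cells and less RNA per dividing cell cannot be told apart. Fewer of the 46 genes were called lower without WH9 or without WH10, and the share over all genes in those fits is not given here. Their median was then −0.65 and −0.58, against −0.004 and −0.0075 for all genes. Total counts in place of TMM factors moved the median of all genes to −0.11 and the calls over all genes from 2143 lower and 2347 higher to 2948 lower and 1611 higher, with 32 of the 46 genes lower and none higher.

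**Figure D2:**
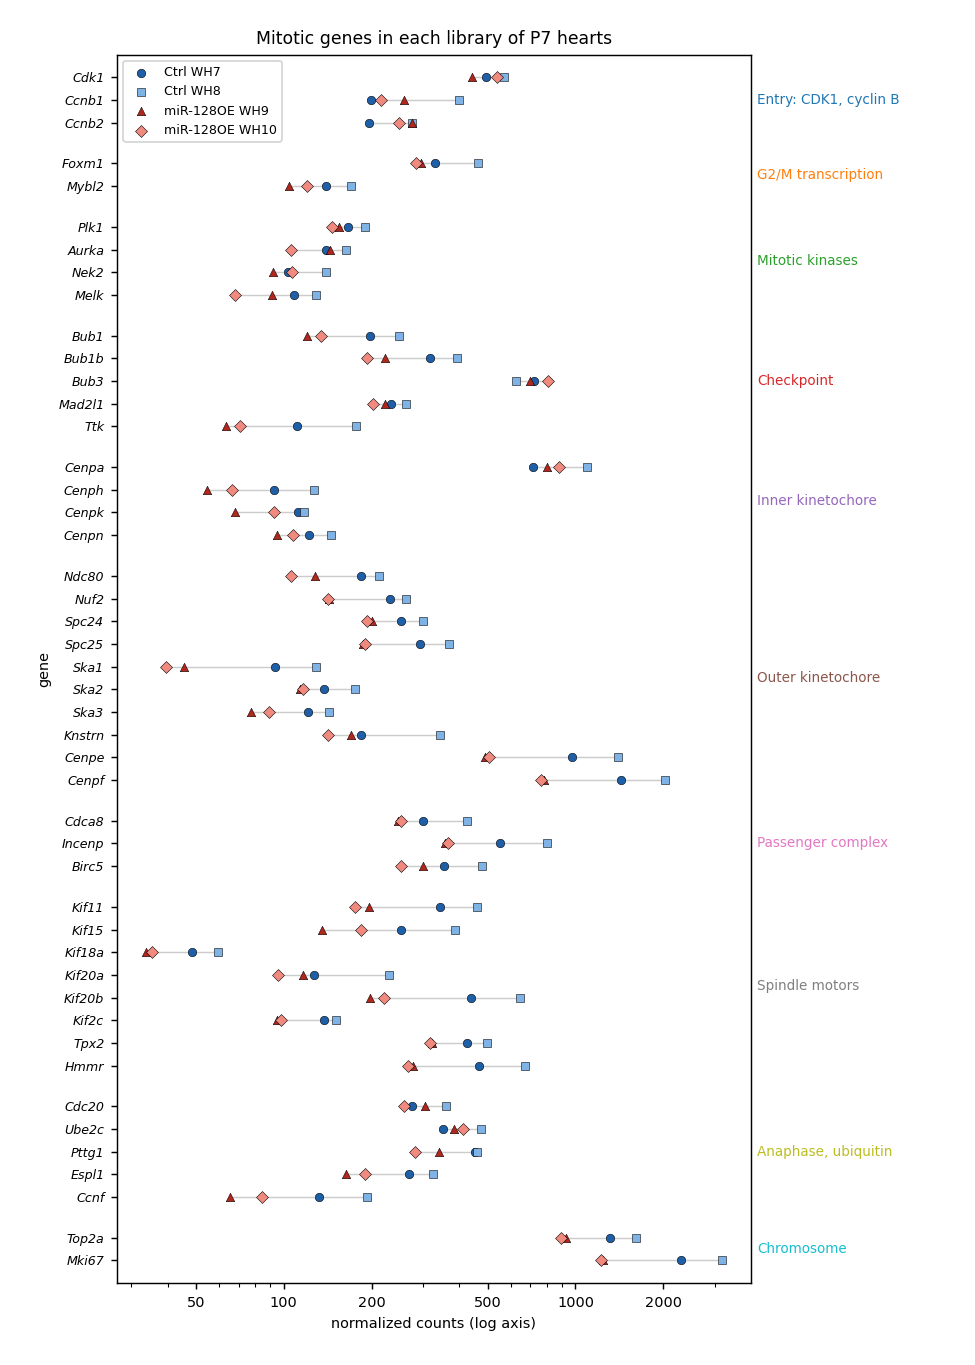
Normalized counts of the 46 genes in each of the 4 libraries (log axis), with a row for each gene, grouped by role, and a point for each library. Both miR-128OE points lie left of both Ctrl points for 37 genes, and the groups overlap for 9, among them *Cdk1*, *Ccnb1* and *Ccnb2*.

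Entry into mitosis depends on CDK1, the kinase that triggers it, and on its partners cyclin B1 (*Ccnb1*) and cyclin B2 (*Ccnb2*). Values are given as normalized counts, first for WH7 and WH8 and then for WH9 and WH10. *Cdk1* (Entrez 12534, chromosome 10, 69335146 to 69352912 on GRCm38) had 493 and 571 in Ctrl and 444 and 537 in miR-128OE hearts. *Ccnb1* had 199 and 400 in Ctrl and 258 and 215 in miR-128OE hearts. *Ccnb2* had 197 and 276 against 274 and 249. In all 3 genes the groups overlapped, and for *Ccnb1* the Ctrl libraries differed by a log2 value of 1.00 and bracketed both miR-128OE libraries. The log2 fold changes were −0.11 (standard error 0.12) for *Cdk1*, −0.31 (0.27) for *Ccnb1* and 0.17 (0.17) for *Ccnb2*. None of the 3 passed the edgeR test, at an unadjusted p-value under 0.05 or by DESeq2. With WH8 left out, *Ccnb2* was called higher (0.41, adjusted p = 0.0441 in the edgeR quasi-likelihood fit), and with WH7 left out its sign turned (−0.08). With WH7 left out, *Ccnb1* was called lower (−0.76, adjusted p = 0.00115 by edgeR).

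FOXM1 (*Foxm1*) and B-MYB (*Mybl2*) are the transcription factors that switch on genes of G2 and mitosis. *Foxm1* had 329 and 465 normalized counts in Ctrl and 295 and 283 in miR-128OE hearts. *Mybl2* had 140 and 170 against 104 and 120. Both miR-128OE libraries were the lowest for each gene, but the adjusted p-values of the edgeR test were 0.0597 for *Foxm1* (log2 fold change −0.44, standard error 0.16) and 0.0825 for *Mybl2* (−0.45, 0.18). At an unadjusted p-value under 0.05 both were lower. DESeq2 called neither, whereas edgeR's likelihood ratio test called *Foxm1*.

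Polo-like kinase 1 (*Plk1*) and Aurora A (*Aurka*) build the spindle poles, NEK2 separates the centrosomes, and MELK is a kinase that peaks in mitosis. *Plk1* had 166 and 189 normalized counts in Ctrl and 154 and 146 in miR-128OE hearts. *Aurka* had 140 and 164 against 144 and 106, and *Nek2* had 103 and 140 against 92.1 and 107. The miR-128OE values of *Plk1* lay just below the Ctrl values, and those of *Aurka* and *Nek2* overlapped with them. *Melk* had 109 and 129 in Ctrl and 91.1 and 68.1 in miR-128OE hearts, without overlap. The log2 fold changes of *Plk1*, *Aurka* and *Nek2* were −0.23 (standard error 0.15), −0.28 (0.19) and −0.27 (0.21). That of *Melk* was −0.57 (0.22, adjusted p = 0.0703 by edgeR). None of the 4 kinases was called by edgeR's quasi-likelihood test or by DESeq2, and *Melk* alone had an unadjusted p-value under 0.05 and was called by edgeR's likelihood ratio test.

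Some genes of the spindle assembly checkpoint were called and others were not, and a difference between them was not tested. The kinases BUB1 and TTK (MPS1), which recruit checkpoint proteins to unattached kinetochores, and BUBR1 (*Bub1b*), which blocks the APC/C, were lower, whereas *Mad2l1* and *Bub3*, whose products act in the inhibitor with BUBR1, were not called. *Ttk* had 111 and 177 normalized counts in Ctrl and 63.4 and 70.7 in miR-128OE hearts. *Bub1* had 198 and 249 against 120 and 134, and *Bub1b* had 316 and 391 against 222 and 193. All 3 fell without overlap, with log2 fold changes of −1.07 (standard error 0.25, adjusted p = 0.0106), −0.80 (0.17, adjusted p = 0.00644) and −0.77 (0.14, adjusted p = 0.00407) by edgeR. *Mad2l1* had 233 and 261 in Ctrl and 223 and 203 in miR-128OE hearts. *Bub3* had 719 and 627 against 700 and 804. *Mad2l1* lay slightly lower in both miR-128OE libraries (−0.21, standard error 0.13), and *Bub3*, which also has roles outside mitosis, overlapped between the groups (0.16, 0.11).

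The inner kinetochore genes encode the centromeric histone CENP-A and 3 subunits of the network that sits on it. *Cenpa* had 713 and 1094 normalized counts in Ctrl and 798 and 878 in miR-128OE hearts. The Ctrl libraries enclosed both miR-128OE values, and the log2 fold change was −0.09 (standard error 0.17). *Cenph* had 92.4 and 127 against 54.5 and 66.5, and it was the only one of these 4 genes that fell by the edgeR test (log2 fold change −0.83, standard error 0.24, adjusted p = 0.0258). *Cenpk* had 112 and 117 against 68.3 and 92.5, and *Cenpn* had 122 and 146 against 95.1 and 108. Neither overlapped, and their log2 fold changes were −0.50 (0.21, adjusted p = 0.101 by edgeR) and −0.38 (0.18, adjusted p = 0.142 by edgeR). DESeq2 did not call *Cenph*.

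The outer kinetochore holds the machinery that grips microtubules, and 8 of its 10 genes were lower, with the groups apart for all 10. The NDC80 complex is the main microtubule coupler, and its 4 subunit genes all fell, with log2 fold changes of −0.76 for *Ndc80*, −0.78 for *Nuf2*, −0.49 for *Spc24* and −0.80 for *Spc25*. DESeq2 called neither *Spc24* nor *Ska3*. Between the miR-128OE libraries *Nuf2* had 143 and 142 normalized counts, against 230 and 261 in Ctrl. The SKA complex strengthens this coupling as the spindle pulls. *Ska1* had 93.3 and 129 in Ctrl and 45.5 and 39.5 in miR-128OE hearts, the largest decrease of the 46 genes (log2 fold change −1.37, standard error 0.25, adjusted p = 0.0035 by edgeR). *Ska3* fell (log2 fold change −0.65), and *Ska2* had 137 and 175 against 114 and 116 (log2 fold change −0.43, standard error 0.18, adjusted p = 0.0968 by edgeR). Thus the 3 subunit genes of this complex had unequal estimates, although a difference between them was not tested.

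The motor CENP-E, which carries chromosomes to the spindle equator, and CENP-F, a large protein of the kinetochore corona, stood at 11.7 and 9.52 CPM per kb of annotated exon in Ctrl hearts. *Cenpe* had 973 and 1396 in Ctrl and 491 and 507 in miR-128OE hearts. *Cenpf* (Entrez 108000, chromosome 1, 189640606 to 189688107 on GRCm38) had 1435 and 2029 against 782 and 764. Both fell to less than the lower Ctrl library by a wide gap, with log2 fold changes of −1.24 (standard error 0.15, adjusted p = 0.000459) and −1.16 (0.14, adjusted p = 0.000484) by edgeR. *Knstrn*, which encodes the spindle protein kinastrin, had 184 and 342 in Ctrl and 170 and 142 in miR-128OE hearts. Its log2 fold change of −0.72 (standard error 0.26) missed the threshold of the edgeR test (adjusted p = 0.057) and passed by DESeq2 (adjusted p = 0.048), and the Ctrl libraries lay 0.90 apart on the log2 scale.

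The chromosomal passenger complex corrects wrong attachments and later guides cytokinesis, and all 3 of its listed genes fell. *Incenp*, the scaffold, had 550 and 798 normalized counts in Ctrl and 356 and 365 in miR-128OE hearts (log2 fold change −0.89, standard error 0.16, adjusted p = 0.00294 by edgeR). *Birc5*, which encodes survivin, had 354 and 479 against 299 and 252. *Cdca8*, which encodes borealin, had 299 and 424 against 246 and 252. Their log2 fold changes were −0.59 (0.16) and −0.52 (0.16), without overlap, and the adjusted p-values of the edgeR test were 0.0205 and 0.0356. DESeq2 did not call *Cdca8*.

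Of the 8 genes of spindle motors and assembly factors, 6 were lower, and the groups were apart for all 8. Eg5 (*Kif11*) and *Kif15* slide antiparallel microtubules to push the poles apart. *Kif11* had 342 and 458 normalized counts in Ctrl and 196 and 176 in miR-128OE hearts, and it fell (log2 fold change −1.09, standard error 0.16, adjusted p = 0.00109 by edgeR). *Kif15* fell likewise (−0.97, 0.22). *Kif20b*, a motor of the spindle midzone (Entrez 240641, chromosome 19, 34922335 to 34975750 on GRCm38), had 440 and 647 against 197 and 221, the largest decrease of this group (log2 fold change −1.36, standard error 0.18, adjusted p = 0.000642 by edgeR). *Hmmr* and *Tpx2*, which organize microtubules around the poles, were both lower. *Hmmr* had 465 and 673 against 277 and 266 (log2 fold change −1.05), and *Tpx2* had 426 and 497 against 322 and 318 (−0.52). *Kif2c*, a microtubule depolymerase, fell (−0.58), a call that DESeq2 did not make. *Kif18a*, which dampens chromosome movements, had 48.5 and 59.4 against 33.7 and 35.3 (−0.63, standard error 0.28, adjusted p = 0.113 by edgeR). *Kif20a*, needed in cytokinesis, had 127 and 229 against 117 and 95.9 (−0.71, 0.26, adjusted p = 0.065 by edgeR). Both uncalled motors lay lower in both miR-128OE libraries, but with the lowest counts of the group in *Kif18a* and a wide Ctrl pair in *Kif20a*.

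Among the genes of anaphase and of ubiquitination, those of securin, separase and cyclin F fell, whereas the APC/C activator and its E2 enzyme were not called. *Pttg1*, which encodes securin, had 451 and 459 normalized counts in Ctrl and 342 and 282 in miR-128OE hearts, and *Espl1*, which encodes separase, had 270 and 324 against 163 and 190. *Ccnf*, which encodes cyclin F, a ubiquitin ligase subunit, had 132 and 192 against 65.4 and 84.1. These 3 fell, with log2 fold changes of −0.55 (standard error 0.12), −0.73 (0.15) and −1.09 (0.23) and adjusted p-values from 0.00541 to 0.00851 by the edgeR test. *Cdc20*, the activator, had 274 and 360 in Ctrl and 304 and 259 in miR-128OE hearts, and *Ube2c*, the E2 enzyme, had 350 and 473 against 382 and 411. Both overlapped between the groups, with log2 fold changes of −0.16 (standard error 0.15) and −0.04 (0.14).

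Both chromosome genes were lower. Ki-67 (*Mki67*), the proliferation marker that coats mitotic chromosomes (Entrez 17345, chromosome 7, 135689784 to 135716450 on GRCm38), had 2295 and 3177 normalized counts in Ctrl and 1243 and 1222 in miR-128OE hearts. *Top2a*, the topoisomerase that untangles sister chromatids, had 1318 and 1617 against 930 and 895. Both fell without overlap, with log2 fold changes of −1.15 (standard error 0.13, adjusted p = 0.000388) and −0.68 (0.10, adjusted p = 0.00145) by edgeR.

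**Figure D3:**
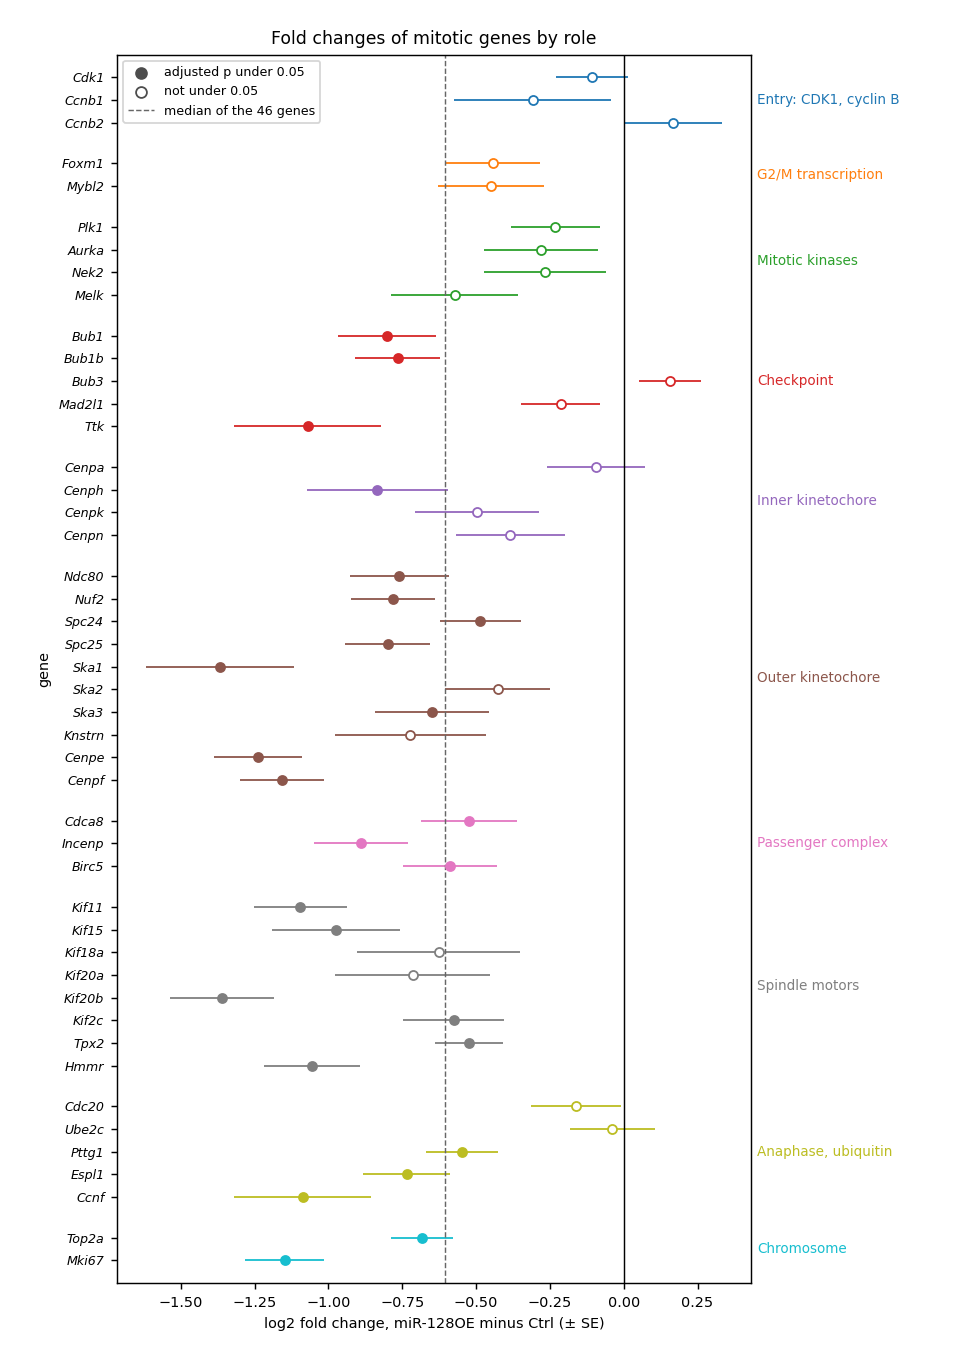
Log2 fold change of each of the 46 genes (miR-128OE minus Ctrl) with its standard error, grouped and coloured by role. Filled points are the 26 genes past the threshold of the edgeR test, open points the 20 that missed it, and the dashed line is the median of the 46 genes (−0.61). The estimates run from −1.37 (*Ska1*) to 0.17 (*Ccnb2*), and the 9 genes of mitotic entry, G2/M transcription and mitotic kinases are all among those not called.

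Per kilobase of annotated exon, the level in Ctrl hearts was highest for *Mki67* (23.1 CPM per kb), followed by *Pttg1* (19.3), *Cdc20* (14.4), *Top2a* (13.8) and *Ube2c* (13.4). It was lowest for *Kif18a* (0.465 CPM per kb). The exon length joins all annotated forms of a gene, so this order depends on the annotation. For *Cenpa* it was 5860 bases, against 1466 for the form with the longest coding sequence, whereas for *Mki67* both were 10061. Across the 46 genes, which share these libraries, Spearman's rho between the log2 fold change and the average log2 CPM was 0.01 (n = 46). Over 13489 tested genes this rho was 0.21. The entry genes *Cdk1* (9.15 CPM per kb) and *Ccnb2* (13.1) stood beside *Cenpf* (9.52) and *Cenpe* (11.7) in Ctrl, whereas the values in miR-128OE hearts were 8.44 and 14.5 against 4.25 and 4.91, a difference in order that was not tested. The other entry gene, *Ccnb1*, went from 6.03 to 4.77.

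The Ctrl libraries were unlike each other in these genes. WH8 was higher than WH7 in 45 of the 46, with *Bub3* the exception, and the median difference (WH7 minus WH8) was −0.37 in log2 CPM, against −0.02 for all genes. The summed level of the 46 genes was 1436 CPM in WH7 and 1906 in WH8, against 1039 and 1042 in the miR-128OE libraries. The miR-128OE libraries differed from each other by a median of 0.01, with 23 of 46 genes higher in WH10. The range between the Ctrl libraries was wider than that between the miR-128OE libraries in 39 genes. The median absolute difference in log2 CPM was 0.37 in Ctrl and 0.16 in miR-128OE for the 46 genes. Over all genes it was 0.17 in Ctrl and 0.12 in miR-128OE. The mean of the miR-128OE libraries lay below WH7 in 40 genes and below WH8 in 45, with median log2 differences of −0.47 and −0.77. In 25 genes the gap between the groups was larger than the range between the Ctrl libraries. Neither this count nor that of the 39 genes was made over all genes.

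The direction for the entry genes rested on which Ctrl library was used. Without WH8, the log2 fold changes of *Cdk1* (0.00), *Ccnb1* (0.25), *Cenpa* (0.24), *Cdc20* (0.04) and *Ube2c* (0.19) were at or above 0, and without WH9 those of *Cdk1* (0.03) and *Ube2c* (0.02) were too. Without WH7, the log2 fold changes of *Ccnb1* (−0.76) and *Cenpa* (−0.38) were negative. The median of the 46 genes was then −0.78, against −0.0004 for all genes. In contrast, 39 of the 46 genes were lower in direction whichever library was left out, and 12 genes were called lower with each single library left out and under all other settings tried. These 12 were *Bub1b*, *Nuf2*, *Spc25*, *Ska1*, *Cenpe*, *Cenpf*, *Incenp*, *Kif11*, *Kif20b*, *Hmmr*, *Top2a* and *Mki67*, which come from the checkpoint, the outer kinetochore, the passenger complex, the spindle and the chromosome. How many of all 14266 genes kept a negative sign or a call through these fits was not counted. With all libraries, 7327 of the 14266 had a negative log2 fold change. The Ctrl libraries also differed in markers of other cells. All 8 fibroblast markers were higher in WH7 than in WH8 (summed 9940 and 6458 CPM, against 8757 and 9489 in the miR-128OE libraries), as were 7 of 8 macrophage markers (109 and 82.5 CPM, against 88.1 and 88.0). The part of this in the mitotic genes was not tested.

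**Figure D4:**
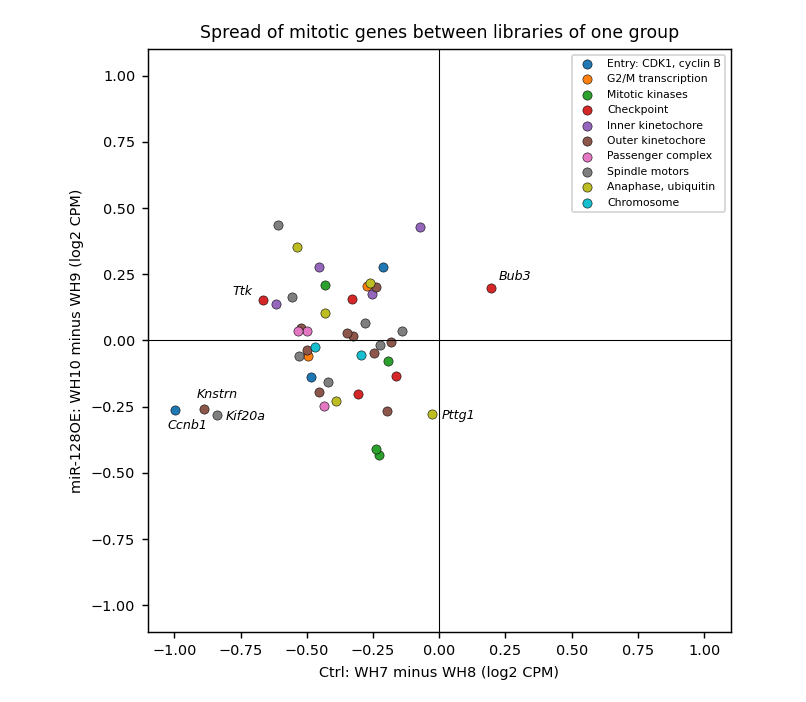
Difference between the libraries of a group for each of the 46 genes, with WH7 minus WH8 (Ctrl) on the horizontal axis and WH10 minus WH9 (miR-128OE) on the vertical axis, both in log2 CPM; colours give the role. All genes but *Bub3* lie left of 0, with a median of −0.37, whereas the vertical values are spread around 0, with a median of 0.01.

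The estimates were more negative for genes with long coding sequences. Over the 46 genes, the log2 fold change was related to the coding length of the longest annotated form (Pearson's r −0.57, Spearman's rho −0.59, n = 46), and over 13489 tested genes the relation had the same sign (r −0.18, rho −0.25). Genes share libraries and are not independent replicates, so these values are a description. The median coding length was 2357 bases for the 26 lower genes and 1223 for the others. When all genes were split into 4 bins of like size by coding length, the median log2 fold change went from 0.14 in the shortest to −0.15 in the longest, and the share called lower from 7.06% to 25.1%. Of the mitotic genes, 6 of 10 in the shortest bin, 3 of 12 in the next, 3 of 7 in the third and 14 of 17 in the longest were lower, with medians of −0.52, −0.35, −0.52 and −0.97. Within each bin, their median was below that of all genes. *Ska1* had a short coding sequence and the most negative fold change. An offset for GC content and transcript length was chosen after the data were seen. With it, 26 of the 46 genes were again lower and their median was −0.65, against −0.007 for the 13648 genes tested. The share of those genes called lower in that fit is not given here. Coding length itself was not adjusted for. Transcript length had a weaker relation to the log2 fold change (rho −0.44 over the 46 genes and −0.16 over the 13489).

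**Figure D5:**
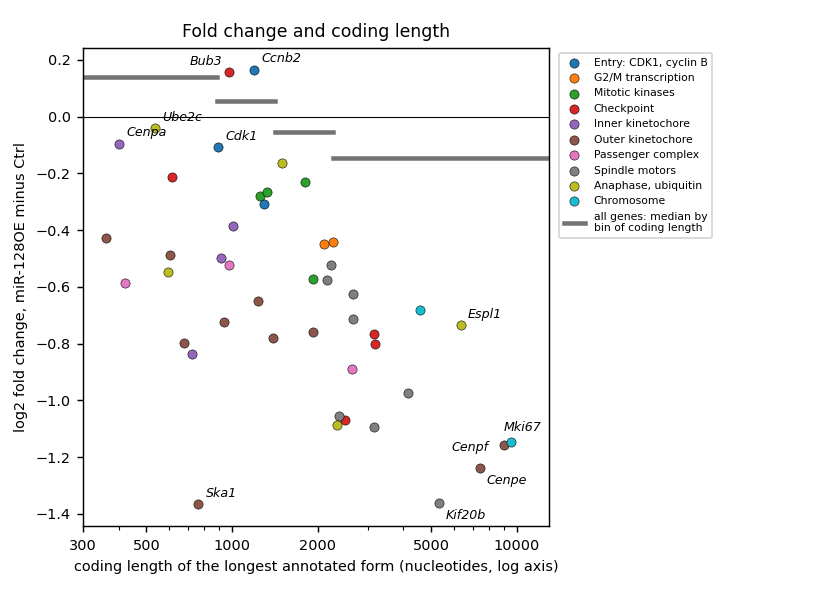
Log2 fold change (miR-128OE minus Ctrl) of the 46 genes against coding length in nucleotides (log axis), coloured by role, with grey bars for the median of all tested genes in each of 4 bins by coding length. The grey bars go from 0.14 to −0.15, and the mitotic genes lie mostly below them, lowest among the longest genes.

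Other genes of mitosis, not among the 46, were read from the same fit. They too were listed by role with earlier results of these data known, so they are no independent evidence. Of 72 such genes, 70 passed the filter, and 31 were lower and 1 was higher by the edgeR test, with a median log2 fold change of −0.51, against 15.0% of all genes lower and 16.5% higher. Fewer of them were called lower without WH9 or without WH10, and the share over all genes in those fits is not given here. *Numa1*, which focuses the spindle poles, had 1638 and 1823 normalized counts in Ctrl against 1170 and 1094 in miR-128OE hearts, and *Cdca2*, a phosphatase regulator on chromosomes, had 239 and 336 against 123 and 142. The gene that was higher was the kinetochore gene *Zwint*, with 655 and 594 in Ctrl and 794 and 746 in miR-128OE hearts (log2 fold change 0.30, standard error 0.09, adjusted p = 0.035 by edgeR). The call for *Zwint* was lost by DESeq2 and with upper-quartile factors or total counts, and when WH8, WH9 or WH10 was left out. Of the 70 genes, 12 were higher in WH7 than in WH8, and the median difference (WH7 minus WH8) was −0.27.

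The 17 genes of APC/C subunits and regulators, most of which are also used outside mitosis, had a median log2 fold change of 0.00, with 2 lower and 2 higher, shares no larger than the 15.0% and 16.5% over all genes. *Anapc5* had 5576 and 5931 normalized counts in Ctrl and 3647 and 3985 in miR-128OE hearts, and the APC/C inhibitor *Fbxo5* had 159 and 164 against 96.0 and 119. *Ube2s* had 1427 and 1603 against 2034 and 1976, and *Anapc13* had 1148 and 1159 against 1475 and 1503. These are the 4 genes past the threshold, the first pair lower and the last pair higher. Of 26 genes of DNA replication, which act before mitosis, 14 were lower and the other 12 were not called, with a median of −0.42. These replication genes hardly separated WH7 from WH8 (median difference −0.03), unlike the mitotic genes. *Mcm6*, a subunit of the replicative helicase, had 709 and 668 in Ctrl and 352 and 339 in miR-128OE hearts.

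Markers of other cell types were read beside these results. The 10 cardiomyocyte markers summed to 52456 and 56794 CPM in Ctrl and 70852 and 69083 in miR-128OE hearts, with 5 of them higher and 2 lower by the edgeR test. The 8 endothelial markers summed to 1928 and 1940 CPM in Ctrl and 2030 and 1955 in miR-128OE hearts, with 2 higher and 2 lower. The 6 mural markers summed to 1876 and 1743 CPM in Ctrl and 2242 and 2565 in miR-128OE hearts. Of these, *Acta2* (7381 and 6815 normalized counts against 12482 and 14754) and *Rgs5* were higher by the edgeR test, and *Myh11* was lower. Of the 8 fibroblast markers, *Lum* alone was called, with 2780 and 1653 normalized counts in Ctrl and 3546 and 3366 in miR-128OE hearts. The 6 neutrophil markers summed to 78.4 and 108 against 80.0 and 73.1 CPM, highest in WH8 as was the summed level of the 46 genes. Of 8 erythroid genes, *Alas2* was higher (445 and 304 normalized counts in Ctrl, 823 and 756 in miR-128OE hearts) and the haemoglobin genes *Hba-a1*, *Hba-a2*, *Hbb-bs* and *Hbb-bt* were listed at 0 in all 4 libraries. These have near-identical copies, whose counts are uncertain because the counting rule is not given. The part of any of these cell types in the lower mitotic genes was not tested.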

How the data were processed

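RNA-seq of P7 mouse hearts was analyzed. Low-quality reads were removed by the authors, the rest were aligned to mm10 with TopHat2, and reads on known genes were counted with Bioconductor packages. The deposited table holds raw counts per Entrez gene and library. Gene models, strand and the handling of multi-mapping reads are not given in the sources used here, so overlapping genes, antisense genes and near-identical copies are uncertain. The submitters' processing notes also name bcl2fastq and edgeR. Of 24454 identifiers, 24381 were matched to a symbol (RefSeq, GRCm38.p6, and GENCODE M21).

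The counts were fitted with edgeR 4.0.16 (R 4.3.3) using TMM factors and the quasi-likelihood test over the 14266 genes that passed filterByExpr at its defaults, with Benjamini-Hochberg adjustment and a threshold of 0.05. Standard errors were obtained by dividing log2 fold changes by √F. Normalized counts are TMM-scaled to the mean effective library size, and log2 CPM used a prior count of 2. The script was tested on simulated data. Total counts per library ranged from 8096870 to 14359838, and 3 counts, the floor, correspond to 0.214 to 0.36 CPM, which covers counting error only.

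Alternatives were DESeq2 1.42.0, the likelihood ratio test, other size factors, filters, a threshold of 0.01 and leaving out each library. A GC content and length offset was chosen after the data were seen. The members and lists were chosen with earlier results of these data known. Values in each library are given for the 2 most highly expressed members and the most changed member of each role and for all members not lower. Other members were named for their role, and of other lists up to 3 genes with the smallest p-value in each direction were named. A result under this rule is not reported here. *Hba-a1*, *Hba-a2*, *Hbb-bs* and *Hbb-bt* were named after their values were seen. Hearts at P1 and P28 were not analysed here. Coding lengths came from GENCODE M21 (longest coding form), as did 3′UTRs, for which the longest annotated 3′UTR of any form was taken. Sequences came from RefSeq and GRCm38, read with Python 3.11.15.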

Additional observations from a re-analysis of the deposited data

How the results depend on the processing

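With 2 libraries a group, single libraries decided many values. The lower mitotic genes numbered 26, and 14 to 34 with a library left out (14 without WH9, 17 without WH10). Higher ones numbered 0 to 1, the 1 being *Ccnb2* without WH8. The median was −0.78 to −0.47. Other mitotic genes numbered 10 to 40 lower and 0 to 3 higher, and all genes 667 to 2384 lower and 897 to 2654 higher, where 2143 and 2347 had been called. Log2 fold changes that turned sign with a library left out ran from −0.761 to 0.247 for *Ccnb1*, −0.36 to 0.0364 for *Cdc20* and −0.382 to 0.238 for *Cenpa* (positive without WH8), from −0.241 to 0.0329 for *Cdk1* and −0.253 to 0.185 for *Ube2c* (positive without WH8 and without WH9), and from −0.0773 to 0.413 for *Ccnb2* (negative without WH7). DESeq2 called 1317 genes lower in all, 22 of them mitotic, losing *Cenph*, *Spc24*, *Ska3*, *Cdca8* and *Kif2c* and adding *Knstrn*. At a threshold of 0.01, 1050 genes were lower and 1264 higher, with 19 of the 46 and 15 other mitotic genes lower. *Zwint*, the 1 other mitotic gene called higher, left 0 with upper-quartile factors, total counts, DESeq2 and the 0.01 threshold. Total counts shifted the median of all genes to −0.11 and that of the mitotic genes to −0.71. Other size factors, filters, the likelihood ratio test and the offset for GC content and length gave 26 to 32 lower mitotic genes. Counts over all genes are given for total counts, DESeq2 and the 0.01 threshold, but not for each left-out library or each other setting. The causes of these changes were not tested. No paired analysis was possible because the labels give no replicate numbers shared by the groups. A gene at 34 counts a library is measured with less precision than one at 2510.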
